A study of Mus musculus with 48 samples.

Results

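Kidney slices kept outside the body in the treatment labelled normoxia-hyperoxia, which the labels describe as a model of reperfusion and whose titles give 24 h, were compared with untreated control slices taken at 6 h. The samples were chosen by title and treatment label: 6 normoxia-hyperoxia libraries and 6 control libraries at 6 h, which makes 12 of the 48 libraries of the series. The series measured the messenger RNA of bulk kidney slices from male mice of 2 inbred strains, C57BL/6J and DBA/2J, the founder strains of the BXD recombinant panel, after exposure to nephrotoxic drugs or to altered oxygen. Each strain and condition had 3 libraries, which the labels number as biological replicates without saying whether slices with the same number came from 1 mouse. No genetic alteration or further agent is named for these groups, and no animal age is given. The oxygen levels and the time of any change between them are not given in the sources used here. The normoxia-hyperoxia slices differed from the 6 h controls in time in culture as well as in oxygen. The titles also place the controls of both times under nephrotoxicity and the normoxia-hyperoxia slices under kidney reperfusion. The effects of time, oxygen and titled set cannot be told apart in this comparison. Values in the 6 untreated control libraries at 24 h, 3 for each strain, are set beside the main ones. These controls match the time in the titles but not the titled set, so oxygen and set cannot be told apart there either.

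The proximal tubule, the segment that reabsorbs most of the filtered glucose, phosphate, amino acids and protein, makes up most of the kidney cortex and depends on mitochondrial respiration. A slice keeps all parts of the nephron together with vessels, stroma and resident immune cells but has no blood flow, so oxygen reaches its cells by diffusion from the medium. Cells short of oxygen stabilise hypoxia-inducible factors and transcribe genes for glycolysis and blood vessel growth, while excess oxygen yields reactive species that are met by antioxidant enzymes and by the heat shock and NRF2 responses.

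Total counts ran from 5619309 in replicate 2 of the DBA/2J normoxia-hyperoxia slices to 25137581, and the other 10 libraries lay between these values. The gene lists of proximal tubule transport, loop of Henle and distal tubule, principal cells, intercalated cells and podocytes each had counts in all 12 libraries. In a principal component analysis of the 12 libraries the first component, with 46.8% of the variance, separated the strains, and the second, with 29.4%, separated the conditions, the controls lying between -63.6 and -19.2 and the normoxia-hyperoxia slices between 9.92 and 65.1. Neither component followed a single factor. Within each strain the first also separated the conditions, and within each condition the second also separated the strains. Replicate 2 of the C57BL/6J controls stood apart from its 2 partners, with the interferon-stimulated gene Isg15 at 76.8 CPM, the count scaled to the library total, against 19.1 and 26.5, and with the lowest summed level of proximal tubule transport genes among the 6 h controls. By the chi-square per degree of freedom of their counts over genes, which grows with depth, it lay at 51.8 and 21.95 from those partners, which lay at 16.4 from each other. Replicate 2 of the C57BL/6J normoxia-hyperoxia slices lay at 40.1 and 37.5 from its partners, beside 14.95 between them, and replicates 1 and 3 of the DBA/2J normoxia-hyperoxia slices lay at 42.5 from each other. That replicate 2 and replicate 1 of the DBA/2J normoxia-hyperoxia slices had the highest mitochondrial shares of their groups, 16.6% and 17.4%. Lists whose total of called members moved by over 1.5 times without 1 library are given with those libraries. Mitochondrial transcripts took 15.4% ± 0.78 (SD, n = 3) of counts in the C57BL/6J controls and 14.1% ± 2.32 in its normoxia-hyperoxia slices, and 8.16% ± 0.15 and 13.7% ± 3.30 in DBA/2J. The difference averaged over strains was 2.08 percentage points (exact permutation within strains, two-sided, p = 0.215, the smallest possible being 0.005), and 1.16 without replicate 1 of the DBA/2J normoxia-hyperoxia slices.

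Of 16841 genes tested with edgeR's quasi-likelihood method and Benjamini-Hochberg adjustment, 7562 (44.9%) passed an adjusted p of 0.05 for the mean over both strains. Of these, 3778 (22.4% of genes tested) were higher in the normoxia-hyperoxia slices and 3784 (22.5%) were lower, and the median log2 fold change over all genes tested was 0.02. This balance was 4031 higher and 3460 lower when scaled by library totals alone, and 3464 and 4105 without mitochondrial genes. Beyond a change of 1 on the log2 scale, 800 genes (4.75%) were higher and 1064 (6.32%) lower. In 4270 genes (25.4%) the libraries of the 2 conditions did not overlap in either strain and moved the same way, 2185 (13%) upwards and 2085 (12.4%) downwards. Within C57BL/6J 3905 genes passed (23.2%), of which 1796 (10.7%) were higher and 2109 (12.5%) lower, and within DBA/2J 5920 passed (35.2%), of which 2875 (17.1%) were higher and 3045 (18.1%) lower. The balance within C57BL/6J turned to 2199 higher and 1805 lower when scaled by library totals alone, and was 1597 higher and 2330 lower without mitochondrial genes. Without replicate 3 of the C57BL/6J controls it was 1108 higher and 1661 lower, and without replicate 3 of its normoxia-hyperoxia slices 1197 higher and 1594 lower. Against the 24 h controls 11772 of 17256 genes (68.2%) passed, 5881 (34.1%) higher and 5891 (34.1%) lower. Scaling that comparison by library totals alone moved its median log2 fold change from 0.00 to -0.17 and its calls to 4699 higher and 7347 lower. The comparisons with 6 h and with 24 h controls share the normoxia-hyperoxia libraries, so their values stand side by side and are not independent. In bulk slices, fewer cells of a type and less RNA per cell cannot be told apart.

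**Figure D1:**
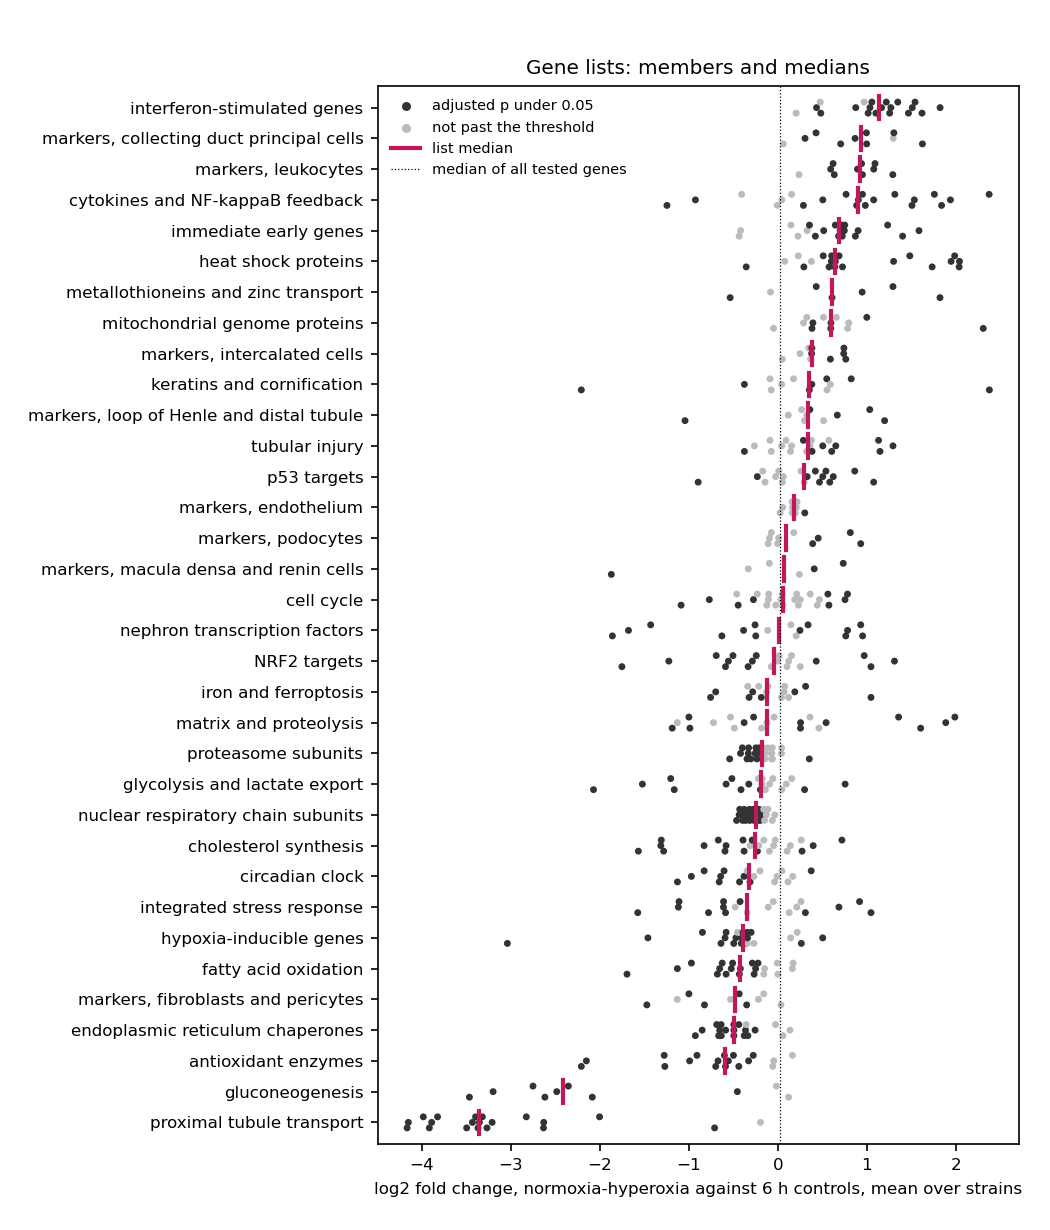
Log2 fold change of normoxia-hyperoxia slices against 6 h controls, mean over strains, for each tested member of the gene lists with more than 2 tested members (horizontal axis, log2 scale). Each point is 1 gene, dark where adjusted p was under 0.05, the red bar is the list median and the dotted line the median of all tested genes. Proximal tubule transport and gluconeogenesis lie to the left of 0, with medians of -3.36 and -2.42, and heat shock, cytokine and interferon-stimulated genes lie mostly to the right.

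The loss of proximal tubule transport transcripts was the deepest change in any list. Of 20 members, 19 fell, 18 of them without overlap of the libraries in either strain, against 22.5% and 12.4% of all genes, and the list median was -3.36 on the log2 scale beside 0.02 for all genes. Slc34a1 (chr13:55398187-55415592), the main phosphate carrier of the brush border, stood at 2907, 1409 and 2474 CPM in the 6 h controls of C57BL/6J and 65.7, 81 and 101 CPM in its normoxia-hyperoxia slices, and 3188, 3005 and 3658 CPM in the 6 h controls of DBA/2J and 455, 337 and 322 CPM in its normoxia-hyperoxia slices (log2 fold change -3.98, SE 0.18, adjusted p = 1.35e-08). The highest normoxia-hyperoxia library lay far below the lowest control in both strains. Lrp2, which encodes megalin, the receptor for filtered protein, went from 579, 278 and 499 CPM at 6 h to 29, 38.2 and 38.4 CPM in C57BL/6J slices, and in DBA/2J slices from 862, 1026 and 1030 CPM to 130.0, 90.6 and 81.5 CPM (log2 fold change -3.50, SE 0.19, adjusted p = 4.66e-08). Its partner Cubn (log2 fold change -3.89, SE 0.20, adjusted p = 4.66e-08) and the accessory protein gene Amn (-3.21) fell with it.

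Transcripts of organic anion transporters fell too. Slc22a6, the basolateral organic anion transporter 1, went from 394, 167 and 267 CPM at 6 h to 10.4, 9.11 and 13.6 CPM in C57BL/6J slices, and in DBA/2J slices from 668, 721 and 841 CPM to 71.5, 52.3 and 54.4 CPM (log2 fold change -4.16, SE 0.20, adjusted p = 3.43e-08). The neighbouring anion transporter gene Slc22a8 fell by a log2 fold change of -4.15 and the urate transporter gene Slc22a12 of -2.63. For sodium-coupled uptake the log2 fold changes were -3.92 for the glucose carrier gene Slc5a2, -3.82 for the second phosphate carrier gene Slc34a3, -3.37 for the neutral amino acid carrier gene Slc6a19 and -2.83 for the basolateral bicarbonate carrier gene Slc4a4, and all 4 fell. Slc7a8, an amino acid exchanger subunit, fell less (log2 fold change -0.71, SE 0.08, adjusted p = 8.85e-06). One member did not pass. Slc9a3, the apical sodium-proton exchanger, stood at 179, 195 and 192 CPM in the 6 h controls of C57BL/6J and 209, 226 and 88.9 CPM in its normoxia-hyperoxia slices, and 158, 149 and 133 CPM in the 6 h controls of DBA/2J and 117, 146 and 112 CPM in its normoxia-hyperoxia slices (log2 fold change -0.19, SE 0.19, adjusted p = 0.429), and the libraries of the conditions overlapped. In summed CPM the list ran from 3662 to 7206 in C57BL/6J controls and 505 to 701 in its normoxia-hyperoxia slices, and from 8938 to 10410 and 1254 to 1692 in DBA/2J. Its median was -3.84 in C57BL/6J and -2.79 in DBA/2J, and 2 members, Slc13a1 and Slc5a2, passed the test of the strain difference, beside 0.232% of all genes. Both calls were lost when all 48 libraries entered 1 fit, and that of Slc5a2 also with the replicate number as a block (adjusted p = 0.0625). Against 24 h controls 13 members were lower and 2 higher, with a median of -0.80, beside 34.1% of all genes each way. In those 24 h controls Slc34a1 stood at 196, 340.5 and 332 CPM in C57BL/6J and 1071, 482 and 891 CPM in DBA/2J, between the 6 h controls and the normoxia-hyperoxia slices.

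**Figure D2:**
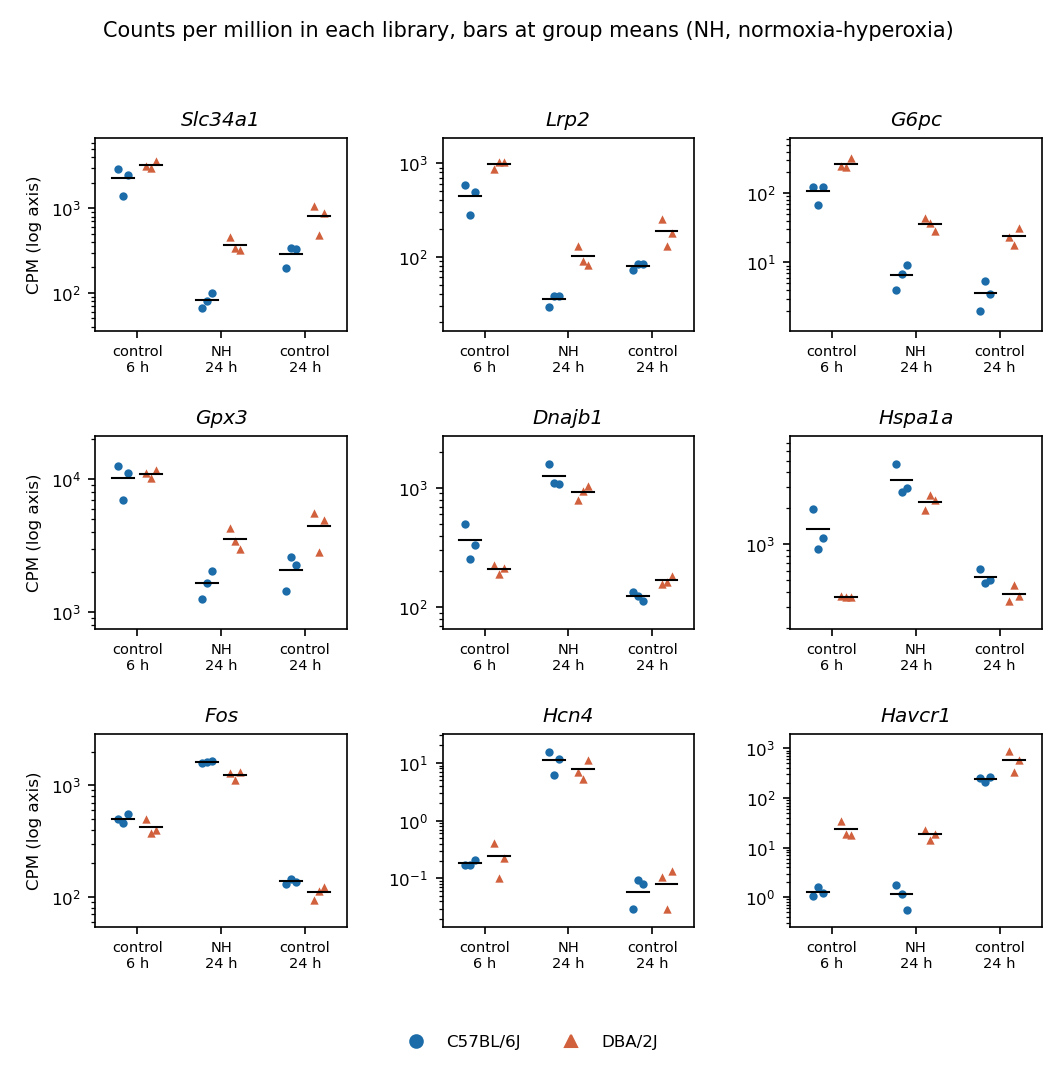
CPM of 9 genes in each library on a log axis, with C57BL/6J as circles, DBA/2J as triangles and 6 h controls, normoxia-hyperoxia slices (NH) and 24 h controls side by side. Points are libraries, bars are group means and a count of 0 is drawn at 0.03 CPM. Slc34a1, Lrp2, G6pc and Gpx3 are lower and Dnajb1, Hspa1a, Fos and Hcn4 higher in every normoxia-hyperoxia library than in the 6 h controls of its strain, while Havcr1 overlaps them and is far higher in the 24 h controls.

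The deepest falls of single genes were mostly in transport genes. Under the naming rule, which took the 8 largest falls among genes with an average of at least 2 log2 CPM and no overlap in either strain, they were Slc22a30 (-4.38), Slc22a22 (-4.35), Slco1a1 (-4.32), Sucnr1 (-4.29), Slco1a6 (-4.27), Cyp2d12 (-4.20), Pzp (-4.20) and Slc22a6 on the log2 scale. The Slc22a and Slco1a genes encode organic anion transporters, Sucnr1 the receptor for succinate, Cyp2d12 a cytochrome P450 and Pzp a protease inhibitor. Slco1a1, whose expression in mouse kidney depends on androgens, went from 47.5, 26.9 and 44.8 CPM at 6 h to 1.81, 1.43 and 2.12 CPM in C57BL/6J slices, and in DBA/2J slices from 141, 164 and 211 CPM to 13.2, 8.19 and 7.88 CPM. Its control values were higher in DBA/2J, and the lack of overlap in either strain was a condition of the rule. Sucnr1 reached as few as 5 counts in a C57BL/6J normoxia-hyperoxia library and Cyp2d12 as few as 3, so their depth of fall rests on few reads. Several of the Slc22a, Slco1a and Cyp2d genes are near-identical copies, among which the counting could divide reads.

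Gluconeogenesis, the making of glucose from lactate and amino acids that in the kidney takes place in the proximal tubule, fell in 8 of 10 members, all 8 without overlap, and rose in 0 (list median -2.42), against 22.5% of all genes lower and 12.4% lower without overlap. G6pc, the glucose-releasing phosphatase of the last step, went from 124, 68.6 and 125 CPM at 6 h to 4.05, 6.76 and 9.17 CPM in C57BL/6J slices, and in DBA/2J slices from 247, 238 and 319.9 CPM to 43.1, 37 and 28.2 CPM (log2 fold change -3.46, SE 0.21, adjusted p = 1.42e-07). The entry enzyme Pck1 fell from 468 ± 204 to 58 ± 6.58 CPM (mean ± SD, n = 3) in C57BL/6J, and DBA/2J went from 497 ± 97.3 to 90.9 ± 22.8 CPM (log2 fold change -2.75, SE 0.20, adjusted p = 6.08e-07). Fbp1 (-2.35), Pcx (-2.48), the glucose-6-phosphate carrier gene Slc37a4 (-2.62) and the glucose exporter gene Slc2a2 (-3.20) also fell. The mitochondrial isoform Pck2 (-0.02, adjusted p = 0.887) did not pass. In the comparison with 24 h controls the list median was 0.02, and 3 members were higher and 2 lower, beside 34.1% of all genes each way. G6pc itself was higher than in the 24 h controls (log2 fold change 0.90, SE 0.25, adjusted p = 0.00772), which held 1.99, 5.33 and 3.47 CPM in C57BL/6J and 23.2, 17.9 and 31.4 CPM in DBA/2J.

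Transcription factors of nephron identity moved both ways. Hnf4a, the master regulator of proximal tubule genes, went from 158, 101 and 118 CPM at 6 h to 25.2, 40.1 and 35.9 CPM in C57BL/6J slices, and in DBA/2J slices from 299, 319 and 343 CPM to 156, 109 and 93.4 CPM (log2 fold change -1.68, SE 0.16, adjusted p = 2.95e-06), with no overlap. The bile acid receptor gene Nr1h4 (-1.86) fell as well, and Rxra (-0.63) and Pax8 (-0.38) fell less. Factors of other segments rose: Gata3 of the collecting duct (log2 fold change 0.95, SE 0.07, adjusted p = 2.04e-07), Foxi1 of intercalated cells (0.76), Lhx1 (0.78) and Wt1 of podocytes (0.93). In all, 6 of 16 rose and 7 fell, against 22.4% of all genes higher and 22.5% lower, with a median of 0.02. Relative to 24 h controls 13 were higher and 3 lower, beside 34.1% of all genes each way, and Hnf4a was among those higher (0.58).

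Among markers of the other nephron segments, rises outnumbered falls in most lists, and 22.4% of all genes were higher. For principal cells, the water and sodium reabsorbing cells of the collecting duct, 8 of 10 markers rose and 0 fell (median 0.93). Aqp3, the basolateral water channel, went from 179, 199 and 160.0 CPM at 6 h to 323, 258 and 361 CPM in C57BL/6J slices, and in DBA/2J slices from 145, 147 and 152 CPM to 252, 226 and 223 CPM (log2 fold change 0.71, SE 0.09, adjusted p = 1.73e-05), and Hsd11b2, which protects the mineralocorticoid receptor from cortisol-like hormones, rose by 1.00 on the log2 scale. For acid-secreting and base-secreting intercalated cells 6 of 10 rose and 0 fell (median 0.38), among them the bicarbonate exchanger gene Slc26a4 (log2 fold change 0.74, SE 0.15, adjusted p = 0.00158) and the proton pump subunit gene Atp6v1b1 (0.38). For loop of Henle and distal tubule 4 of 10 rose, with the magnesium channel gene Trpm6 at 1.20 and Pvalb at 1.03, and Cldn10 fell (-1.04). Without replicate 3 of the C57BL/6J normoxia-hyperoxia slices 8 of the 10 passed. Umod (0.51, adjusted p = 0.0582) and Slc12a1 (0.12, adjusted p = 0.799) did not pass. Among macula densa and renin cell genes Nos1 rose (log2 fold change 0.74, SE 0.13, adjusted p = 4.70e-04) and Ren1, which encodes renin, fell (log2 fold change -1.87, SE 0.48, adjusted p = 0.0105). Ren1 stood at 299.8, 126 and 511 CPM in the 6 h controls of C57BL/6J and 98.3, 62.7 and 63 CPM in its normoxia-hyperoxia slices, and 613, 112 and 522 CPM in the 6 h controls of DBA/2J and 195, 58.4 and 142 CPM in its normoxia-hyperoxia slices. For podocytes 4 of 10 markers rose, Wt1 among them, while the slit diaphragm gene Nphs1 (0.18, adjusted p = 0.219) did not pass. With 24 h controls as reference, all 10 principal cell markers (median 2.05), all 10 of loop of Henle and distal tubule (2.15), 9 of 10 of intercalated cells (2.54) and 8 of 10 of podocytes (0.95) were higher, where 34.1% of all genes were, and macula densa and renin cell genes were higher in 3 and lower in 3 (1.08).

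Beside 22.4% of all genes higher and 22.5% lower, 1 of 10 endothelial markers passed, Emcn (log2 fold change 0.30, SE 0.10, adjusted p = 0.0248), and it was lost without replicate 1 of either strain's controls, replicate 2 of the C57BL/6J or replicate 2 or 3 of the DBA/2J normoxia-hyperoxia slices. Without replicate 2 of the C57BL/6J controls or replicate 1 of its normoxia-hyperoxia slices 2 members passed, and with the replicate number as a block 5 did. Within strains 0 endothelial markers passed in C57BL/6J (median -0.08) and 5 rose in DBA/2J (median 0.46), among them the vascular growth factor receptor gene Kdr (0.63), beside 10.7% and 17.1% of all genes higher, and 0 passed the test of the strain difference. Fibroblast and pericyte markers fell in 5 of 10 (median -0.48), where 22.5% of all genes were lower. Pdgfra, the receptor that marks interstitial fibroblasts, went from 38.1, 29.6 and 38.7 CPM at 6 h to 9.26, 20.2 and 16.9 CPM in C57BL/6J slices, and in DBA/2J slices from 40.3, 25.7 and 26 CPM to 7.12, 8.19 and 12.3 CPM (log2 fold change -1.47, SE 0.20, adjusted p = 9.62e-05), and Pdgfrb of pericytes fell as well (-0.82). Relative to 24 h controls the order of these markers was the opposite, with 6 higher and 1 lower (median 0.57), and 7 endothelial markers were higher and 1 lower (median 1.45), beside 34.1% of all genes each way. The fibroblast and pericyte count against 6 h controls was reduced to 3 of 10 on leaving out replicate 1 or 3 of the C57BL/6J controls or of its normoxia-hyperoxia slices, or replicate 1 of those of DBA/2J. Of the markers of urothelium, fat and adrenal cortex, tissues that could be carried along at dissection, 2 of 7, 1 of 6 and 1 of 6 had enough counts to test. The fatty acid carrier gene Fabp4 of the fat list rose (log2 fold change 0.55, SE 0.15, adjusted p = 0.00943). Star of the adrenal list, which brings cholesterol into mitochondria, rose too (0.76, adjusted p = 0.0193), and lost its call without replicate 1 of the DBA/2J controls or replicate 3 of the normoxia-hyperoxia slices of either strain. The urothelial gene Upk1a rose (0.87, adjusted p = 0.0301) on as few as 3 counts in a library, a call lost on leaving out any of 6 libraries: replicate 3 of the C57BL/6J controls, replicate 2 or 3 of the DBA/2J controls, replicate 2 of the C57BL/6J or replicate 1 or 3 of the DBA/2J normoxia-hyperoxia slices. The Upk1a call was also lost with the replicate number as a block. The fat markers Plin1 and Lep and the adrenal markers Cyp11b1 and Nr5a1 were at 0 in all 12 libraries.

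Most antioxidant enzymes fell. Of 18 members 15 fell, 13 of them without overlap, and 0 rose (median -0.59), against 22.5% of all genes lower and 12.4% lower without overlap. Gpx3, the secreted glutathione peroxidase that the proximal tubule makes for the plasma, went from 12510, 7018 and 11110 CPM at 6 h to 1265, 1645 and 2038 CPM in C57BL/6J slices, and in DBA/2J slices from 11230, 10170 and 11700 CPM to 4319, 3427 and 2985 CPM (log2 fold change -2.15, SE 0.16, adjusted p = 1.47e-07). The extracellular superoxide dismutase gene Sod3 (log2 fold change -2.21, SE 0.15, adjusted p = 2.34e-07), the catalase gene Cat (-1.28), Gpx1 (-1.27), the cytosolic superoxide dismutase gene Sod1 (-0.91) and Gpx4, which reduces lipid peroxides (-0.70), fell too. The mitochondrial superoxide dismutase gene Sod2 fell less (log2 fold change -0.33, SE 0.07, adjusted p = 0.0024). Summed CPM of the list was 10190 to 17370 in C57BL/6J controls and 3675 to 4509 in its normoxia-hyperoxia slices, and 14720 to 16710 and 5668 to 7464 in DBA/2J. Gpx3 made up most of this sum in the 6 h controls of both strains. The summed proximal tubule transport level fell in the same libraries, and its part in this result was not tested. Compared with 24 h controls, 4 members were higher and 10 lower, beside 34.1% of all genes each way, and Gpx3 did not pass (-0.16, adjusted p = 0.493).

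Targets of NRF2, the regulator of the electrophile response, moved both ways: 4 of 20 rose and 9 fell (median -0.04), against 22.4% of all genes higher and 22.5% lower. Without replicate 2 of the C57BL/6J controls 6 rose and 9 fell, with a median of -0.05. The members that rose were the thioredoxin reductase gene Txnrd1 (log2 fold change 1.31, SE 0.17, adjusted p = 4.94e-05), the sulfiredoxin gene Srxn1 (0.97), the cystine transporter gene Slc7a11 (1.05) and Gsta4 (0.43). The malic enzyme gene Me1 (log2 fold change -1.75, SE 0.12, adjusted p = 1.21e-07) and Osgin1 (-1.22) fell most. The classical targets Nqo1 (-0.07, adjusted p = 0.504) and Hmox1 (0.12, adjusted p = 0.696) did not pass. Hmox1, which encodes heme oxygenase 1, stood at 888, 2099 and 899.6 CPM in the 6 h controls of C57BL/6J and 1316, 1187 and 1591 CPM in its normoxia-hyperoxia slices, and 661, 961 and 1026 CPM in the 6 h controls of DBA/2J and 772, 1088 and 1267 CPM in its normoxia-hyperoxia slices, with its highest value in replicate 2 of the C57BL/6J controls, without which it passed. Against 24 h controls 18 of 20 were lower (median -1.49), where 34.1% of all genes were, Nqo1 by -2.60 and Hmox1 by -1.59 on the log2 scale.

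Metallothioneins, small zinc and copper binding proteins, rose. Mt2 went from 251, 377 and 204 CPM at 6 h to 612, 532 and 622 CPM in C57BL/6J slices, and in DBA/2J slices from 168, 174 and 189.9 CPM to 395, 553 and 627 CPM (log2 fold change 1.29, SE 0.15, adjusted p = 1.65e-05), and Mt1 rose by 0.95. The zinc importer genes Slc39a4 (1.82) and Slc39a10 (0.61) and the metal-sensing factor gene Mtf1 (0.43) rose with them, while the zinc exporter gene Slc30a1 fell (-0.53). Slc39a4 held 2, 1 and 3 counts in the C57BL/6J controls and 4, 3 and 13 in its normoxia-hyperoxia slices, so its size of change rests on few reads. Of the 7 metallothionein and zinc transport genes 5 rose and 1 fell against 6 h controls, beside 22.4% of all genes higher and 22.5% lower. Set against 24 h controls 1 was higher and 4 lower (median -0.44), beside 34.1% of all genes each way. Neither Mt1 (0.02, adjusted p = 0.858) nor Mt2 (0.13, adjusted p = 0.273) passed against 24 h controls. Of 16 genes of iron handling and ferroptosis 3 rose and 5 fell, against 22.4% of all genes higher and 22.5% lower, and the 8 calls dropped to 4 or 5 when replicate 1 or 3 of the C57BL/6J controls, replicate 3 of the DBA/2J controls, replicate 1 or 3 of the C57BL/6J normoxia-hyperoxia slices or replicate 3 of those of DBA/2J was left out. Tfrc, the transferrin receptor gene, did not pass (-0.13, adjusted p = 0.218), and Aco1, the iron-sensing aconitase gene, fell (-0.75). With 24 h controls as reference 4 of the 16 were higher and 10 lower (median -0.44), beside 34.1% of all genes each way.

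Respiratory genes of the nucleus were slightly lower than at 6 h. Of 26 nuclear respiratory chain subunits 20 fell and 0 rose, against 22.5% of all genes lower and 22.4% higher, with a median of -0.25, and the largest member change was -0.46 for cytochrome c, Cycs. Ndufs1 of complex I (log2 fold change -0.43, SE 0.06, adjusted p = 5.48e-05) and Uqcrc2 of complex III (-0.39) were named by rule. In the comparison with 24 h controls the order was the opposite, with 25 higher and 0 lower (median 0.70), where 34.1% of all genes were higher. Transcripts of the mitochondrial genome rose in 6 of 13 protein-coding members and fell in 0 (median 0.60), where 22.4% of all genes were higher. Within strains 1 was higher and 1, mt-Cytb (-0.64), lower in C57BL/6J (median 0.17), while 7 were higher and 0 lower in DBA/2J (median 0.90), beside 10.7% of all genes higher and 12.5% lower in C57BL/6J and 17.1% higher in DBA/2J, and 0 passed the test of the strain difference. All 13 were higher than in the 24 h controls (median 1.85), where 34.1% of all genes were. mt-Nd5 stood at 8977, 9718 and 9182 CPM in the 6 h controls of C57BL/6J and 10320, 11530 and 10010 CPM in its normoxia-hyperoxia slices, and 3385, 3543 and 3388 CPM in the 6 h controls of DBA/2J and 7949, 6786 and 6545 CPM in its normoxia-hyperoxia slices (log2 fold change 0.60, SE 0.09, adjusted p = 1.58e-04). On the log2 scale mt-Nd5 changed by 1.04 in DBA/2J and by 0.15 in C57BL/6J, a difference that did not pass the interaction test (adjusted p = 0.0796). mt-Nd3 rose (2.31) on at most 11 counts in each DBA/2J library. mt-Co1 of complex IV rose (log2 fold change 0.39, SE 0.14, adjusted p = 0.03), a call that was lost on leaving out any 1 of 7 libraries: replicate 1 or 3 of the C57BL/6J controls, any DBA/2J control, replicate 2 of the C57BL/6J or replicate 1 of the DBA/2J normoxia-hyperoxia slices.

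Fatty acid oxidation, the main fuel pathway of the proximal tubule, fell in 15 of 21 members and rose in 0 (median -0.42), where 22.5% of all genes were lower. The peroxisomal enzyme gene Ehhadh (log2 fold change -1.69, SE 0.10, adjusted p = 2.68e-08) and the receptor gene Ppara that drives the pathway (-1.13) were among those that fell. Ehhadh went from 129.8, 98.9 and 122 CPM at 6 h to 36.3, 44.1 and 36.8 CPM in C57BL/6J slices, and in DBA/2J slices from 174, 201 and 208 CPM to 65.4, 57.8 and 48.6 CPM. Cpt1a, the gate to mitochondrial import, did not pass (-0.16, adjusted p = 0.0732) unless replicate 2 of the C57BL/6J or replicate 1 of the DBA/2J controls was left out, nor did Hadha (0.00) and Hadhb (-0.01). Relative to 24 h controls 18 members were higher and 1 lower (median 0.74), where 34.1% of all genes were higher. Cholesterol synthesis fell in 12 and rose in 3 of 24 members, against the same 22.5% lower and 22.4% higher. Nsdhl (-1.31) was among those that fell and Fdft1 (0.72) among those that rose. With 24 h controls as reference 13 cholesterol genes were higher and 5 lower (median 0.24), beside 34.1% of all genes each way.

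Hypoxia-inducible genes were lower, and most changes were small. Of 23 members 15 fell and 2 rose (median -0.39), against 22.5% of all genes lower and 22.4% higher. Without replicate 2 of the C57BL/6J controls 10 fell and 3 rose. Car9, a carbonic anhydrase that is a standard hypoxia marker, went from 2.57, 1.24 and 2.02 CPM at 6 h to 0.106, 0.159 and 0.101 CPM in C57BL/6J slices, and in DBA/2J slices from 1.83, 3.16 and 1.37 CPM to 0.574, 0.534 and 0.351 CPM (log2 fold change -3.04, SE 0.33, adjusted p = 4.72e-06), and its normoxia-hyperoxia values rest on 2 to 10 counts a library. Ero1l, an oxidase of protein folding, fell by -1.46, the collagen prolyl hydroxylase gene P4ha2 by -0.85 and the mitophagy receptor gene Bnip3 by -0.58 on the log2 scale. Vegfa, the main growth factor for vessels, stood at 708, 1041 and 846 CPM in the 6 h controls of C57BL/6J and 785, 677 and 776 CPM in its normoxia-hyperoxia slices, and 822, 938 and 806 CPM in the 6 h controls of DBA/2J and 555, 719 and 767 CPM in its normoxia-hyperoxia slices (log2 fold change -0.30, SE 0.11, adjusted p = 0.0352), with libraries that overlapped in C57BL/6J but not in DBA/2J. Its call was lost on leaving out replicate 2 or 3 of the C57BL/6J controls or of its normoxia-hyperoxia slices, replicate 2 of the DBA/2J controls or replicate 1 or 2 of its normoxia-hyperoxia slices. Pdk1 (0.26) and Pfkfb4 (0.50) rose. Compared with 24 h controls, 17 members were lower and 2 higher (median -1.01), against 34.1% of all genes each way.

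Glycolysis genes moved less. Of 20 members 9 fell and 2 rose (median -0.19), against 22.5% of all genes lower and 22.4% higher. Ldha, the lactate dehydrogenase subunit of anaerobic glycolysis, went from 718, 833 and 698 CPM at 6 h to 617, 461 and 609 CPM in C57BL/6J slices, and in DBA/2J slices from 753, 809 and 830.4 CPM to 495, 550.1 and 577 CPM (log2 fold change -0.52, SE 0.09, adjusted p = 3.24e-04). The lactate carrier gene Slc16a1 (log2 fold change -1.52, SE 0.08, adjusted p = 1.53e-08), Gpi1 (-1.16) and Eno2 (-1.20) fell more deeply, and Aldoc (0.76) and Pkm (0.30) rose. Hk2 (-0.17, adjusted p = 0.47) and Pgk1 (-0.09, adjusted p = 0.336) did not pass. Against 24 h controls 15 members were lower and 3 higher, with a median of -1.34, beside 34.1% of all genes each way.

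Heat shock genes rose. Of 20 members 16 rose, 12 without overlap, and 1 fell, against 22.4% of all genes higher, 13% higher without overlap and 22.5% lower, with a median of 0.64. Dnajb1, the co-chaperone of HSP70, went from 504, 253 and 333 CPM at 6 h to 1582, 1112 and 1075 CPM in C57BL/6J slices, and in DBA/2J slices from 225, 192 and 213 CPM to 798, 952 and 1046 CPM (log2 fold change 1.95, SE 0.16, adjusted p = 5.33e-07). Hspa1a, an inducible HSP70 gene, stood at 1956, 902 and 1117 CPM in the 6 h controls of C57BL/6J and 4655, 2720 and 2953 CPM in its normoxia-hyperoxia slices, and 366, 362 and 359 CPM in the 6 h controls of DBA/2J and 1912, 2558 and 2318 CPM in its normoxia-hyperoxia slices (log2 fold change 1.99, SE 0.19, adjusted p = 2.73e-06). Both genes were higher in every normoxia-hyperoxia library than in any 6 h control of its strain. Hspa1a and its near-identical neighbour Hspa1b (2.04) share most of their sequence, so reads may have been divided between them. The small heat shock protein genes Cryab (2.04) and Hspb1 (log2 fold change 1.48, SE 0.12, adjusted p = 2.91e-07), the nucleotide exchange factor genes Hsph1 (1.73) and Bag3 (1.30) and the cytosolic Hsp90aa1 (0.73) rose too. The mitochondrial chaperone gene Hspa9 fell (-0.35), and the regulator gene Hsf1 did not pass (0.08, adjusted p = 0.393). Summed CPM was 11300 to 17770 in C57BL/6J controls and 22610 to 33150 in its normoxia-hyperoxia slices, and 7498 to 7828 and 15290 to 19140 in DBA/2J. In the comparison with 24 h controls 15 members were higher and 2 lower (median 0.87), where 34.1% of all genes were higher.

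Heat shock factor binds inverted repeats of the pentamer with core GAA, and the shortest pair of these, GAANNTTC, which reads the same on both strands, was searched in the RefSeq promoter windows of the list. Promoter windows on build GRCm38.p6 were available for 14 of the 20 genes, of which 6 (42.9%) held the motif within 250 bases before a transcription start, 4 of them among the 12 matched members that rose. These are not 6 separate sites: the windows of Hspe1 and Hspd1 overlap on opposite strands and hold the same one, and those of Hspa1a and Hspa1b belong to near-identical copies. Of all 27025 genes with such a window 2088 (7.73%) held it, and of all 32851 windows 2199 (6.69%). A match describes the letters and is not evidence of binding. The windows of 3 members that rose and held the motif are shown because they let the position of the pair be compared, each 250 bases, 5′ to 3′ on the gene's strand, lower case with the motif in capitals: Hspb1 at chr5:135887669-135887918 on the plus strand, Hspa1a at chr17:34972157-34972406 on the minus strand and Dnaja1 at chr4:40722218-40722467 on the plus strand.
Hspb1: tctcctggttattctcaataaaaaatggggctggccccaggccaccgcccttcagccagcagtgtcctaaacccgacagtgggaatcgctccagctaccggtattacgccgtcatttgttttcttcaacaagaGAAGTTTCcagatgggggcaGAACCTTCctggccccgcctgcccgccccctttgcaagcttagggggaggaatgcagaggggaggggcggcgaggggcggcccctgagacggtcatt
Hspa1a: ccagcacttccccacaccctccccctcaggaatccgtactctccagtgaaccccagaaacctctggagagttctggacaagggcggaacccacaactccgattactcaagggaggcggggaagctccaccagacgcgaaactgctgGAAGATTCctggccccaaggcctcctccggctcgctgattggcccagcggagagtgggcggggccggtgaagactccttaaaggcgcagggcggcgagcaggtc
Dnaja1: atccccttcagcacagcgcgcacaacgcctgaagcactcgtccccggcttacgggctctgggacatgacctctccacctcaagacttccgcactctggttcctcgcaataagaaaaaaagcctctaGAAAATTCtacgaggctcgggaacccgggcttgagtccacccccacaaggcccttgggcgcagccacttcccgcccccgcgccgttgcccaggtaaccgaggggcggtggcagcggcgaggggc
The motif began between 97 and 124 bases before the start in these 3 windows. Dnaja1, a further HSP70 co-chaperone gene, rose by 0.51 on the log2 scale. Hspb1 held 2 copies and Hspa1a and Dnaja1 held 1 each. Dnaja1 also has windows at other transcription starts, and those held no match. Dnajb1 was among the members without the motif in its window.

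**Figure D3:**
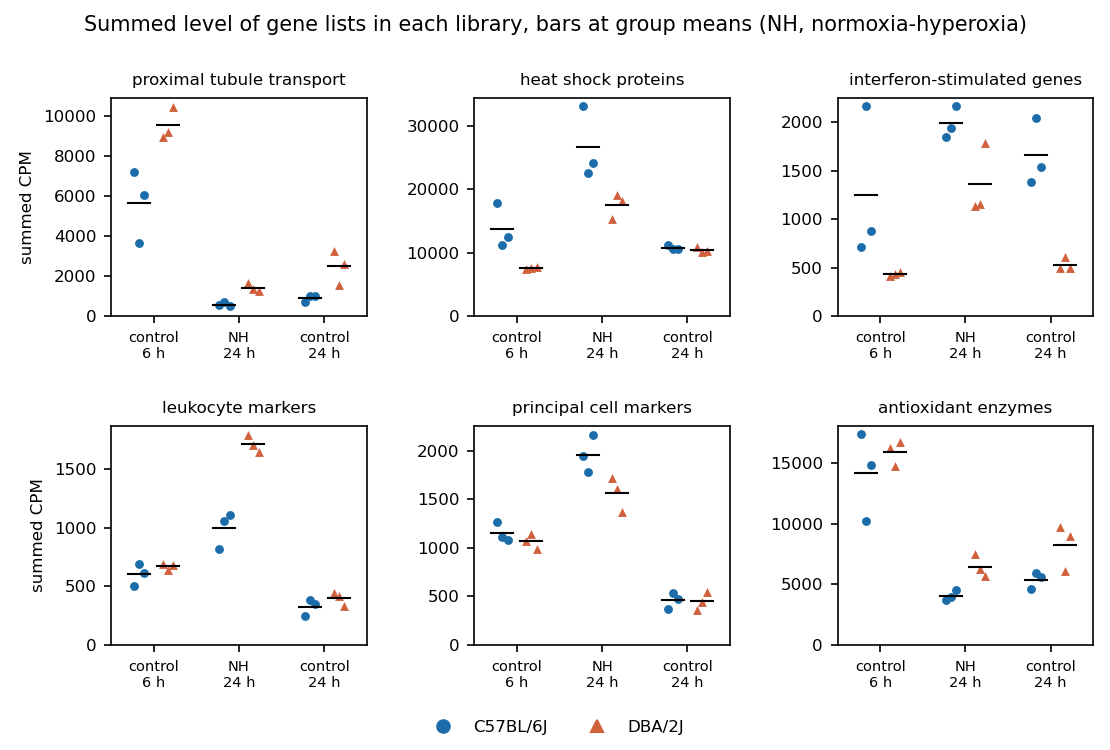
Summed CPM of 6 gene lists in each library (vertical axes, linear and starting at 0), by strain and condition, with points for libraries and bars at group means (NH, normoxia-hyperoxia). The proximal tubule transport and antioxidant sums are lower and the heat shock, principal cell and leukocyte sums higher in the normoxia-hyperoxia slices of each strain than in its 6 h controls, while the interferon-stimulated sums of C57BL/6J overlap through control replicate 2. Cd74 makes up most of the leukocyte sum in the 6 h controls and normoxia-hyperoxia slices, and Gpx3 most of the antioxidant sum in the 6 h controls.

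Immediate early genes, which encode transcription factors and feedback proteins induced within minutes of a stimulus, were higher than in either set of controls. Of 20 members 15 rose, 10 without overlap, and 0 fell (median 0.69), against 22.4% of all genes higher and 13% higher without overlap. Fos went from 499.8, 458 and 554 CPM at 6 h to 1574, 1630 and 1649 CPM in C57BL/6J slices, and in DBA/2J slices from 502, 375 and 399 CPM to 1277, 1115 and 1306 CPM (log2 fold change 1.59, SE 0.09, adjusted p = 2.32e-08). In the 24 h controls it stood at 131 to 146 CPM in C57BL/6J and 94.3 to 124 CPM in DBA/2J. Klf4 (log2 fold change 1.40, SE 0.09, adjusted p = 6.80e-08), Egr3 (1.23), Ier2 (0.87), Jun (0.72) and the phosphatase gene Dusp1 (0.75) rose. Atf3 (0.23, adjusted p = 0.185), Myc (-0.43, adjusted p = 0.103) and Nr4a1 (-0.42, adjusted p = 0.112) did not pass. Relative to 24 h controls 16 members were higher and 2 lower (median 1.34), against 34.1% of all genes in either direction.

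Chaperones of the endoplasmic reticulum moved against the heat shock genes. Of 20 members 16 fell and 0 rose (median -0.49), where 22.5% of all genes were lower. Hspa5, which encodes the chaperone BiP, went from 2632, 4779 and 3295 CPM at 6 h to 2189, 1441 and 1753 CPM in C57BL/6J slices, and in DBA/2J slices from 2641, 2466 and 2722 CPM to 1218, 1448 and 1825 CPM (log2 fold change -0.93, SE 0.16, adjusted p = 2.98e-04), without overlap. The disulfide isomerase genes Pdia4 (log2 fold change -0.85, SE 0.09, adjusted p = 2.94e-06) and Pdia3 (-0.66) and Hsp90b1 (-0.63) fell with it. In the integrated stress response, which slows translation and induces ATF4, 8 of 19 tested members fell and 4 rose (median -0.34), against 22.5% of all genes lower and 22.4% higher. Without replicate 2 of the C57BL/6J controls 8 fell and 6 rose, with a median of -0.15. The rises numbered 2 without replicate 1 or 3 of the C57BL/6J controls or of its normoxia-hyperoxia slices, replicate 1 or 2 of the DBA/2J controls or replicate 2 of its normoxia-hyperoxia slices. Ddit3, which encodes CHOP, went from 203, 248 and 214 CPM at 6 h to 155, 88.5 and 103 CPM in C57BL/6J slices, and in DBA/2J slices from 219.6, 258 and 189.5 CPM to 64.3, 109 and 110.4 CPM (log2 fold change -1.12, SE 0.16, adjusted p = 1.22e-04). The serine and cysteine metabolism genes Shmt2 (-1.57) and Cth (-1.11) fell, while Atf4 (0.31), Ppp1r15a, which restarts translation (0.92), and Slc7a11 rose. Compared with 24 h controls, all 20 chaperones were lower (median -1.18), as were 16 of 20 stress response genes, where 34.1% of all genes were lower. Proteasome subunits fell in 14 of 25 by small amounts (median -0.18, with 22.5% of all genes lower), with Psma4 (log2 fold change -0.54, SE 0.07, adjusted p = 1.50e-05) and Psmb1 (-0.40) named by rule, and Psmd11 rose (0.35). All 25 were lower than in the 24 h controls (median -0.54), where 34.1% of all genes were.

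Cytokine and NF-kappaB feedback genes rose in 15 and fell in 2 of 21 tested members (median 0.91), against 22.4% of all genes higher and 22.5% lower. Cxcl2, a neutrophil attractant, went from 8.33, 10.9 and 7.81 CPM at 6 h to 51.5, 40.2 and 38.9 CPM in C57BL/6J slices, and in DBA/2J slices from 60.01, 55.2 and 57 CPM to 169.6, 128 and 175 CPM (log2 fold change 1.84, SE 0.11, adjusted p = 5.41e-08). Tnf, a central inflammatory cytokine, went from 1.96, 2.87 and 2.33 CPM at 6 h to 7.13, 7.68 and 5.59 CPM in C57BL/6J slices, and in DBA/2J slices from 4.61, 3.93 and 3.54 CPM to 17.9, 12.3 and 19.2 CPM (log2 fold change 1.76, SE 0.15, adjusted p = 6.15e-07). Both were higher in every normoxia-hyperoxia library than in its strain's 6 h controls. Ccl5 (1.94), Csf3 (1.51), the adhesion receptor gene Icam1 (0.95) and the inhibitor gene Nfkbia (0.89) rose. Il6 did not pass (-0.41, adjusted p = 0.155) unless replicate 3 of the DBA/2J normoxia-hyperoxia slices was left out, and Il11 (-0.93) and the alarmin gene Il33 (-1.25) fell. Against 24 h controls 10 members were higher and 7 lower, beside 34.1% of all genes each way.

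Interferon-stimulated genes rose in 17 and fell in 0 of 20 members (median 1.13), 4 of them without overlap, against 22.4% of all genes higher and 13% higher without overlap. Isg15, a ubiquitin-like antiviral protein gene, stood at 19.1, 76.8 and 26.5 CPM in the 6 h controls of C57BL/6J and 68.2, 77.2 and 85.4 CPM in its normoxia-hyperoxia slices, and 10.1, 7.97 and 9.38 CPM in the 6 h controls of DBA/2J and 33.5, 32.6 and 61.6 CPM in its normoxia-hyperoxia slices (log2 fold change 1.54, SE 0.33, adjusted p = 0.00362). In DBA/2J the libraries did not overlap, and in C57BL/6J replicate 2 of the controls reached the level of the normoxia-hyperoxia slices. The antiviral effector gene Ifit1 rose by 1.82, the activator gene Irf1 by 1.26 and the interferon signalling gene Stat2 by 1.01. Within strains 2 members rose in C57BL/6J (median 0.46) and 18 in DBA/2J (median 1.78), beside 10.7% and 17.1% of all genes higher, and 0 passed the test of the strain difference. Without replicate 2 of the C57BL/6J controls 20 of 20 rose, with a median of 1.47. With 24 h controls as reference 14 were higher and 1 lower (median 0.84), beside 34.1% of all genes each way.

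Leukocyte markers moved with these genes. 9 of 10 rose and 0 fell (median 0.92), where 22.4% of all genes were higher, and each had counts in all 12 libraries. Cd74, the invariant chain of class II antigen presentation, went from 376, 527 and 462 CPM at 6 h to 639, 840.2 and 889 CPM in C57BL/6J slices, and in DBA/2J slices from 505, 477 and 516 CPM to 1387, 1353 and 1328 CPM (log2 fold change 1.09, SE 0.10, adjusted p = 1.30e-06), and the macrophage complement gene C1qb rose by 1.08. Summed CPM of the markers was 500.4 to 688 in C57BL/6J controls and 816 to 1106 in its normoxia-hyperoxia slices, and 640.2 to 686 and 1646 to 1788 in DBA/2J, without overlap in either strain. Cd74 made up most of each of these sums, so they mainly follow that gene. Within strains 3 rose in C57BL/6J and 9 in DBA/2J, beside 10.7% and 17.1% of all genes higher, and 0 passed the test of the strain difference. With 24 h controls as reference 8 were higher and 2 lower (median 1.38), beside 34.1% of all genes each way. The part of leukocyte abundance in the cytokine and interferon results was not tested.

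Tubular injury markers gave a mixed picture. 8 of 20 rose and 1 fell (median 0.34), against 22.4% of all genes higher and 22.5% lower, and without replicate 2 of the C57BL/6J controls 12 rose and 1 fell. Without replicate 3 of the C57BL/6J controls or of the DBA/2J normoxia-hyperoxia slices 5 rose. The factors Sox4 (log2 fold change 1.15, SE 0.08, adjusted p = 1.12e-07) and Sox9 (1.13), which are switched on in regenerating tubules, the hyaluronan receptor gene Cd44 (1.29) and osteopontin, Spp1 (0.65), rose. Havcr1, which encodes the injury marker KIM-1, stood at 1.06, 1.58 and 1.24 CPM in the 6 h controls of C57BL/6J and 1.76, 1.15 and 0.554 CPM in its normoxia-hyperoxia slices, and 33.9, 19.1 and 17.7 CPM in the 6 h controls of DBA/2J and 22.9, 14.2 and 18.8 CPM in its normoxia-hyperoxia slices (log2 fold change -0.26, SE 0.27, adjusted p = 0.452), overlapping in both strains. At 24 h its controls held 249.7, 209 and 262 CPM in C57BL/6J and 888, 331 and 572 CPM in DBA/2J, so Havcr1 was lower in the normoxia-hyperoxia slices (log2 fold change -6.16, SE 0.30, adjusted p = 1.12e-08). Lcn2 did not pass against 6 h (0.57, adjusted p = 0.311) unless replicate 1 of the DBA/2J controls was left out, and was lower than at 24 h (-1.42). In the comparison with 24 h controls 14 of 20 injury markers were lower and 5 higher, against 34.1% of all genes each way.

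Matrix and proteolysis genes moved both ways: 7 of 21 rose and 5 fell, against 22.4% of all genes higher and 22.5% lower. The falls numbered 2 or 3 without any 1 C57BL/6J control, replicate 1 or 3 of the C57BL/6J or replicate 1 or 2 of the DBA/2J normoxia-hyperoxia slices, and 8 without replicate 2 of the DBA/2J controls. With 24 h controls as reference 8 were higher and 12 lower (median -0.70), beside 34.1% of all genes each way. The collagenase gene Mmp13 (log2 fold change 1.89, SE 0.16, adjusted p = 1.07e-06), Mmp10 (1.99) and the urokinase receptor gene Plaur (1.36) rose, Fn1 (-1.19) and Timp3 (-0.99) fell, and Mmp3 did not pass (0.46, adjusted p = 0.392). Of 13 tested keratin and cornification genes, beside the same shares of all genes, 5 rose and 2 fell, the transglutaminase gene Tgm1 most deeply (log2 fold change -2.21, SE 0.20, adjusted p = 1.94e-06). Sprr2h rose (2.38) on as few as 5 counts in a DBA/2J control, and Sprr1a did not pass (0.18, adjusted p = 0.481). Relative to 24 h controls 13 keratin and cornification genes were lower, where 34.1% of all genes were, and 1, Krt23, was higher.

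Of 19 p53 targets 9 rose and 2 fell, against 22.4% of all genes higher and 22.5% lower: the death receptor gene Fas (log2 fold change 0.86, SE 0.09, adjusted p = 4.83e-06) and the cell cycle inhibitor gene Cdkn1a (log2 fold change 0.51, SE 0.16, adjusted p = 0.0192) rose and Pmaip1 fell (-0.89). Against 24 h controls 3 p53 targets were higher and 12 lower (median -0.31), beside 34.1% of all genes each way. The Cdkn1a call was lost without replicate 3 of the C57BL/6J controls or of the DBA/2J normoxia-hyperoxia slices. Of 24 cell cycle genes 4 were higher and 4 lower, shares no larger than those of all genes. The replication genes Pcna (0.57) and Mcm4 (log2 fold change 0.76, SE 0.13, adjusted p = 2.54e-04) rose, and the proliferation marker Mki67 did not pass (0.21, adjusted p = 0.505) and turned its sign without replicate 1 of the DBA/2J normoxia-hyperoxia slices. Clock genes fell in 9 and rose in 1 of 18 members, where 22.5% of all genes were lower. The output factor genes Hlf (log2 fold change -1.13, SE 0.10, adjusted p = 7.44e-07), Dbp (-0.97) and Tef (-0.60) and Per1 (-0.64) fell, and Cry1 rose (0.38). Against 24 h controls 7 clock genes were higher and 4 lower (median 0.12), and 3 cell cycle genes were higher and 8 lower (median 0.04), beside 34.1% of all genes each way. The hour of day at which slices were collected is not given in the sources used here.

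The largest rises outside the lists were led by Hcn4 (chr9:58823412-58863175), which encodes a pacemaker cation channel. It stood at 0.168, 0.169 and 0.207 CPM in the 6 h controls of C57BL/6J and 15.2, 6.29 and 11.8 CPM in its normoxia-hyperoxia slices, and 0.411, 0.103 and 0.229 CPM in the 6 h controls of DBA/2J and 7.01, 5.34 and 11.2 CPM in its normoxia-hyperoxia slices (log2 fold change 5.39, SE 0.34, adjusted p = 6.80e-08). The 6 h controls held 2 to 9 counts a library and the normoxia-hyperoxia libraries 30 to 286. The 24 h controls held 0 to 2 counts a library. Mybl1, a transcription factor of the MYB family, went from 2.18, 2.14 and 1.34 CPM at 6 h to 16.8, 13.2 and 34.1 CPM in C57BL/6J slices, and in DBA/2J slices from 1.19, 1.19 and 0.686 CPM to 13.7, 18 and 19.8 CPM (log2 fold change 3.74, SE 0.26, adjusted p = 2.72e-07). Serpina3n, an acute phase protease inhibitor, went from 0.615, 0.451 and 0.466 CPM at 6 h to 3.25, 1.55 and 3.23 CPM in C57BL/6J slices, and in DBA/2J slices from 9.82, 6.68 and 6.00 CPM to 40.04, 48.2 and 68.2 CPM (log2 fold change 2.55, SE 0.24, adjusted p = 2.26e-06). The rule that named these 3 genes admits only genes without overlap in both strains, so their lack of overlap is not a separate result. The control values of Hcn4 and Mybl1 lay below the rule's minimum average, which both met through their normoxia-hyperoxia libraries. The remaining genes named by the rule were Nup210l (2.72), the neuronal pentraxin gene Nptx2 (2.37), the leukocyte receptor gene Slamf8 (2.28), the membrane glycoprotein gene Tpbg (2.25) and the neurofilament gene Nefm (2.23), each with 20 counts or fewer in at least 1 control library except Tpbg.

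The response differed between the strains in 39 of 16841 genes (0.232%) by the interaction test, 24 (0.143%) with a more positive change in DBA/2J and 15 (0.0891%) with a more negative one. This count was the least stable value: it ranged from 11 to 80 when 1 library was left out, lowest without replicate 3 and highest without replicate 1 of the C57BL/6J controls, and moved by over 1.5 times on leaving out any library but replicate 1 of the DBA/2J controls. Of the 39 genes, 25 passed when all 48 libraries entered 1 fit, 23 passed with the replicate number as a block, 15 passed in both, and 10 passed in each of the 12 fits that left out 1 library. C4a (chr17:34809092-34823464), a complement component gene, stood at 1.12, 0.733 and 1.24 CPM in the 6 h controls of C57BL/6J and 1.76, 1.99 and 2.57 CPM in its normoxia-hyperoxia slices, and 38.5, 36.6 and 39.9 CPM in the 6 h controls of DBA/2J and 4.48, 3.38 and 2.76 CPM in its normoxia-hyperoxia slices. It fell in DBA/2J (-3.43) and rose in C57BL/6J (0.97) from a far lower level, a difference of -4.40 (SE 0.31, adjusted p = 1.35e-05). C4a has a near-identical neighbour, C4b, so its reads are uncertain. Hdc, which makes histamine from histidine, stood at 1.45, 2.42 and 2.43 CPM in the 6 h controls of C57BL/6J and 2.29, 2.07 and 2.42 CPM in its normoxia-hyperoxia slices, and 207, 215 and 244 CPM in the 6 h controls of DBA/2J and 47.2, 37.9 and 29.2 CPM in its normoxia-hyperoxia slices. Its fall of -2.54 in DBA/2J against 0.05 in C57BL/6J gave a difference of -2.59 (SE 0.30, adjusted p = 0.0029).

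Gcnt1, a glycosyltransferase that branches O-linked sugars, fell more in C57BL/6J. It went from 107, 77.1 and 111 CPM at 6 h to 13.5, 17.7 and 13.2 CPM in C57BL/6J slices, and in DBA/2J slices from 58.6, 52.2 and 45.8 CPM to 29.5, 34.9 and 37.9 CPM, a difference of 2.15 (SE 0.22, adjusted p = 8.28e-04). The sulfate carrier gene Slc13a1 went from 102, 58.6 and 92.3 CPM at 6 h to 3.57, 4.58 and 4.49 CPM in C57BL/6J slices, and in DBA/2J slices from 158, 187 and 175 CPM to 34.8, 35.4 and 32.3 CPM, a difference of 2.00 (SE 0.23, adjusted p = 0.0029). The efflux pump gene Abcc2 went from 102, 72 and 85.5 CPM at 6 h to 4.90, 4.54 and 4.69 CPM in C57BL/6J slices, and in DBA/2J slices from 51.6, 59.1 and 60.8 CPM to 16.9, 9.43 and 11.3 CPM, a difference of 2.10 (SE 0.26, adjusted p = 0.00369). These 3 genes fell in both strains, to lower levels in C57BL/6J. The interaction calls of Slc13a1 and Abcc2 were lost when all 48 libraries entered 1 fit. The leucine transfer RNA gene of the mitochondrial genome, mt-Tl1, went from 17.2, 18.2 and 14.1 CPM at 6 h to 32.6, 26.9 and 31.4 CPM in C57BL/6J slices, and in DBA/2J slices from 3.61, 4.97 and 4.29 CPM to 24.8, 22.6 and 24.7 CPM, and its rise was larger in DBA/2J by 1.67 (SE 0.20, adjusted p = 0.0029).

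**Figure D4:**
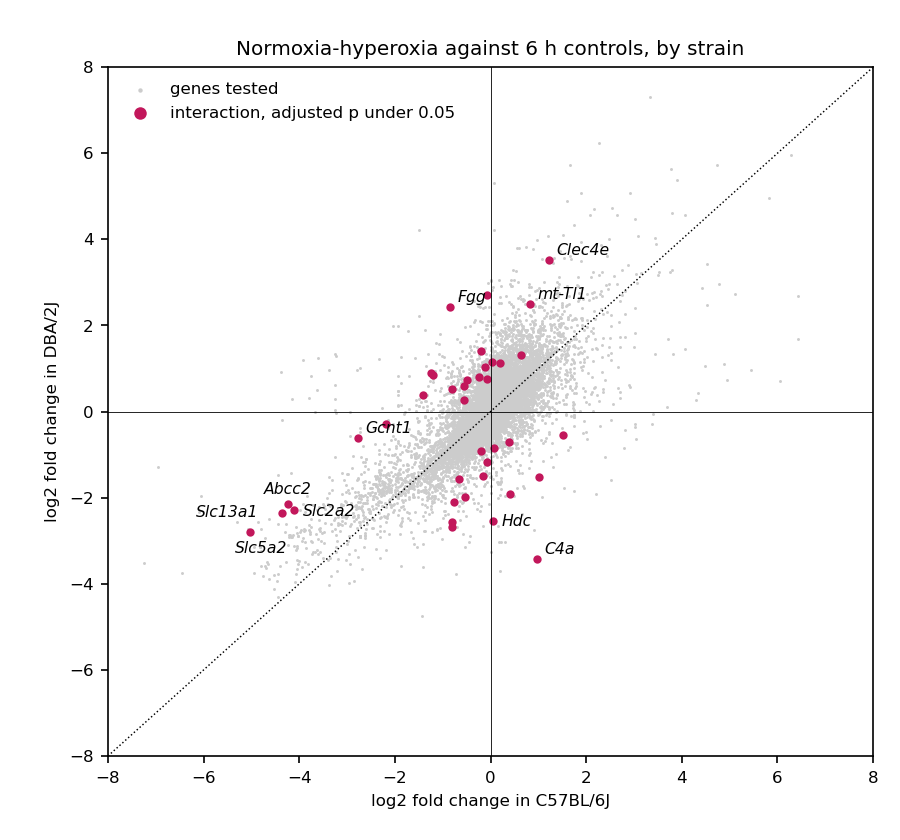
Log2 fold change of normoxia-hyperoxia slices against 6 h controls in C57BL/6J (horizontal axis) and in DBA/2J (vertical axis), 1 point per gene tested, with the 39 genes that passed the interaction test in colour and the dotted line marking equal change. Slc13a1, Slc5a2, Slc2a2 and Abcc2 lie above the line at the lower left, with deeper falls in C57BL/6J, and C4a and Hdc lie below it.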

How the data were processed

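RNA of kidney slices was made into stranded messenger RNA libraries, per the labels' protocols. The authors deposited raw read counts per gene, one column for each library, with no normalization. The submitters' processing notes list bcl2fastq 2.20.0, FastQC 0.11.8, STAR 2.7.9a, featureCounts 1.5.1 and build GRCm38. The strand setting of the counting is not given in the sources used here, so reads of overlapping and antisense genes may not be separated, and near-identical copies may share reads. Gene symbols and coordinates came from GENCODE for GRCm38, and 55141 of 55487 gene identifiers had a symbol. Libraries were assigned to groups by title and library name. Replicate libraries of a group differed by more than counting noise, and the p-values measure the spread between them.

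From the counts, 4 group means, 1 for each strain and condition, were fitted to the 12 libraries with edgeR 4.0.16 in R 4.3.3 (limma 3.58.1): filterByExpr, TMM factors, robust quasi-likelihood F test with 8 residual degrees of freedom, Benjamini-Hochberg adjustment over all genes tested, and a call at adjusted p below 0.05. The fit gave the mean over strains, each strain and their interaction, and the 24 h controls were fitted in the same way. Log2 fold changes carry standard errors from that test. CPM values are counts divided by the library total, and an SD is over 3 libraries. Mitochondrial shares were compared by exact permutation within strains (400 arrangements). The steps were tested on simulated counts.

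Alternatives were RLE factors, library totals, no filter on low counts, DESeq2 1.42.0, all 48 libraries in 1 fit, the replicate block, additive strain and condition, mitochondrial genes left out and each library left out. Genes were named by a rule: the 8 largest rises and falls with average log2 CPM of at least 2 and no overlap, the 6 strongest interaction genes, the 2 strongest members of each of 37 gene lists, and fixed anchors. Other list members and interaction genes in the text were chosen after their values were seen. Some list members, including some that the rule names, are not reported here. The members and the lists were chosen with earlier results of these data known. Motif matches used RefSeq promoter windows of GRCm38.p6.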

Additional observations from a re-analysis of the deposited data

Results flagged for a closer look

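The change between 6 h controls and normoxia-hyperoxia slices differed between the strains, by the interaction term of edgeR's quasi-likelihood test with Benjamini-Hochberg adjustment, in the genes below. Each value is the log2 fold change in DBA/2J minus that in C57BL/6J. A predicted gene that also passed is not named. Of the 39 genes, 14 lost the call when all 48 libraries entered 1 fit: Slc13a1, Abcc2, Slc2a2, Slc5a2, Pm20d1, Mgst3, Clec4e, Scfd2, Apoe, Atp11a, Prex1, Pdzrn3, Plcl2 and Fga. With the replicate number as a block 16 lost it: Gsta2, Clec4e, Scfd2, Fbln7, Slc5a2, Cacna1a, Gng2, Gfra1, Apoe, Atp11a, Osbpl6, Plcl2, Apoa2, Rassf4, Cpne4 and Pla2g15. In the 12 fits that left out 1 library, Pla2g15 passed in 0 and Plcl2, Rassf4 and Cpne4 in 1 each. C4a, Gcnt1, mt-Tl1, Slc13a1, Hdc, Abcc2, Rnase4, Ang, Fgg and Epb41l3 passed in all 12, and the rest in 2 to 11. The control levels of several of these genes differ between the strains, and the part of this in the differences was not tested.

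The change was more negative in C57BL/6J for the following genes. The glucose carrier genes Slc5a2 (2.24) and Slc2a2 (1.81), the sulfate carrier gene Slc13a1 (2.00), the efflux pump gene Abcc2 (2.10), the glutathione transferase gene Gsta2 (1.89) and the glycosyltransferase gene Gcnt1 (2.15) fell more there or passed there alone. Slc5a2 stood at 395, 194 and 377 CPM in the 6 h controls of C57BL/6J and 7.03, 10.5 and 12.6 CPM in its normoxia-hyperoxia slices, and 506, 449.5 and 530.2 CPM in the 6 h controls of DBA/2J and 86.4, 71.7 and 56.6 CPM in its normoxia-hyperoxia slices. The malonyl-CoA decarboxylase gene Mlycd (1.35) fell in C57BL/6J and rose in DBA/2J. The thiolase gene Acaa2 (0.83) and Cpne4 (1.80) fell in C57BL/6J and did not pass in DBA/2J (adjusted p = 0.0666 and 0.239).

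The liver-type plasma protein genes Fga (2.07) and Apoa2 (2.14) and the more widely expressed Apoe (1.15) fell in C57BL/6J and rose in DBA/2J. Fgg (3.27), a fibrinogen chain gene, rose in DBA/2J and did not pass in C57BL/6J (-0.84, adjusted p = 0.0531). It stood at 5.65, 3.10 and 6.72 CPM in the 6 h controls of C57BL/6J and 3.62, 2.11 and 3.23 CPM in its normoxia-hyperoxia slices, and 1.10, 0.880 and 0.572 CPM in the 6 h controls of DBA/2J and 3.91, 6.23 and 4.36 CPM in its normoxia-hyperoxia slices. Other genes with a more positive change in DBA/2J were the leukocyte lectin gene Clec4e (2.28), mt-Tl1 (1.67), Cacna1a (1.62), Plcl2 (1.22), Gng2 (1.15), Rassf2 (1.13), Rassf4 (0.94), Epb41l3 (1.03), Prex1 (0.84) and Pla2g15 (0.69). Leukocyte marker sums, most of which were Cd74, were higher in the DBA/2J normoxia-hyperoxia slices (1646 to 1788 CPM) than in those of C57BL/6J (816 to 1106 CPM). The part of leukocyte abundance in these differences was not tested.

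A more negative change in DBA/2J was found for C4a (-4.40), Hdc (-2.59), the growth factor receptor gene Gfra1 (-2.53), Ang (-2.32) and Rnase4 (-1.46), Asb4 (-2.06), Fbln7 (-1.88), Cyp2j9 (-1.75), the sterol demethylase gene Cyp51 (-1.32), Pdzrn3 (-1.34), Pm20d1 (-1.10), Scfd2 (-1.09), Mgst3 (-0.91), Atp11a (-0.90) and Osbpl6 (-0.71). Ang and Rnase4 share 1 locus and first exons, so their reads are not fully separate. Ang stood at 1.45, 0.845 and 1.45 CPM in the 6 h controls of C57BL/6J and 1.86, 1.79 and 1.46 CPM in its normoxia-hyperoxia slices, and 10.6, 10.4 and 13 CPM in the 6 h controls of DBA/2J and 3.39, 2.85 and 2.71 CPM in its normoxia-hyperoxia slices.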

How the results depend on the processing

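Of 124 genes that the rule names 107 kept their direction and their side of the threshold under every alternative. The number of called members stayed within 1.5 times in 30 of 37 lists, and the median kept its sign and moved by less than the spread between replicates in 30. For the mean over strains, 7562 calls became 7548 with RLE factors and 7622 with DESeq2, and 6722 to 8004 without 1 library, and the calls beyond 1 on the log2 scale were 1864. Within C57BL/6J leaving out a library gave 2769 to 4787 calls, within DBA/2J 4403 to 6380, and against 24 h controls 11412 to 11734. The interaction count of 39 moved to 712 without a filter on low counts, 271 with DESeq2 and 100 with all 48 libraries in 1 fit, and to 11 to 80 without 1 library, and the cause was not tested. In the fit of all 48 libraries 14 of the 39 interaction calls were lost, those of Abcc2 and Slc13a1 among them. The mitochondrial share difference ranged from 1.16 to 2.75 percentage points without 1 library.

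Same-numbered slices did not deviate together in C57BL/6J (r from -0.05 to 0.07) and did so weakly in DBA/2J (r from 0.15 to 0.19), so the numbers were not taken to pair the samples of both strains. With the replicate block 7278 genes passed for the mean over strains, 5666 within DBA/2J and 54 for the interaction, which held 23 of the 39 genes and lost 16. Endothelial markers that passed went from 1 to 5. The calls of Ppargc1a and Upk1a were lost with it.

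Leaving out 1 library moved Trp63 from -0.62 to 0.12 (positive without replicate 3 of the DBA/2J normoxia-hyperoxia slices) and Mki67 from -0.034 to 0.42 (negative without its replicate 1). List medians that turned sign were those of nephron transcription factors (-0.00018 without a filter, -0.011 without mitochondrial genes, -0.035 to 0.097 without 1 library), cell cycle (-0.098 to 0.17) and macula densa (-0.060 to 0.16) without 1 library, and urothelium (0.34 to -0.0055) and adrenal cortex (0.76 to -0.38) without a filter, which adds members to these lists. The precision of low genes is limited by replicate 2 of the DBA/2J normoxia-hyperoxia slices, with 5619309 counts.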
